A study of Capra hircus with 9 samples.

Results

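Late gestation (LG) was compared with the dry period (DP) in the mammary gland of Laoshan dairy goats, as the step in which a gland that gives no milk builds its secretory epithelium again. Of the 9 RNA-seq libraries, 6 were compared, 3 from DP and 3 from LG, and the comparison covered all 23499 genes of the deposited table. The DP goats were sampled at 300 days postpartum and the LG goats at 140 days after mating, and the other 3 libraries came from late lactation (LL) at 240 days postpartum. All 9 goats were healthy Laoshan animals in the third parity with an average age of 4 years, each library was made from total RNA of whole mammary gland tissue, and no agent or allele separated the groups. The labels do not say whether the DP goats were pregnant. Each stage was sampled in its own goats, so the stage cannot be told apart from the animals that represent it.

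During pregnancy, progesterone, prolactin and placental lactogen act on ducts and alveolar progenitors, alveolar epithelium multiplies in place of fat and connective tissue, and alveolar cells begin to make milk proteins, lactose and milk fat. Prolactin signals through its receptor and STAT5, and ELF5 is the transcription factor that carries alveolar cells into the secretory state. After milking stops, involution removes secretory cells with proteases, lysosomal enzymes and macrophages, and the stroma is remodelled.

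Values below are FPKM (fragments scaled to transcript length and to the size of the library) as deposited, given in the order of goats 1, 2 and 3 of each stage. Fold changes are differences of the mean log2(scaled FPKM + 1), LG minus DP, from a limma fit, with their standard errors (SE), and a gene was called when its Benjamini-Hochberg adjusted p was under 0.05 and its log2 fold change was at least 1 in size. Of 14701 genes tested, 1948 (13.3%) were called, 937 higher in LG (6.37%) and 1011 lower (6.88%). Adjusted p alone was under 0.05 for 5112 genes (34.8%). Scaled values of the 2 stages did not overlap for 3690 genes that were higher in LG (25.1%) and for 3346 that were lower (22.8%). The median log2 fold change of all genes tested was 0.0083. Without scaling it was -0.18 and the split was 715 higher and 1577 lower. Libraries correlated at 0.920 to 0.956 within DP, at 0.961 to 0.972 within LG and at 0.798 to 0.868 between them. Summed FPKM was 601250 to 616268 in DP and 733277 to 768157 in LG. RPL36AL and DNAAF2 together held 31.1% to 43.4% of it in DP and 31.8% to 35.1% in LG. The deposited table holds no counts or read depth, so no interval for counting error was given. Some named genes (AQP5, BIRC5, FOXA1, KRTAP11-1, OXTR and TRPV5) passed the filter on low values only through the stage in which they were high, so they are described by their values alone. They stay in the counts and medians of the lists that hold them.

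**Figure D1:**
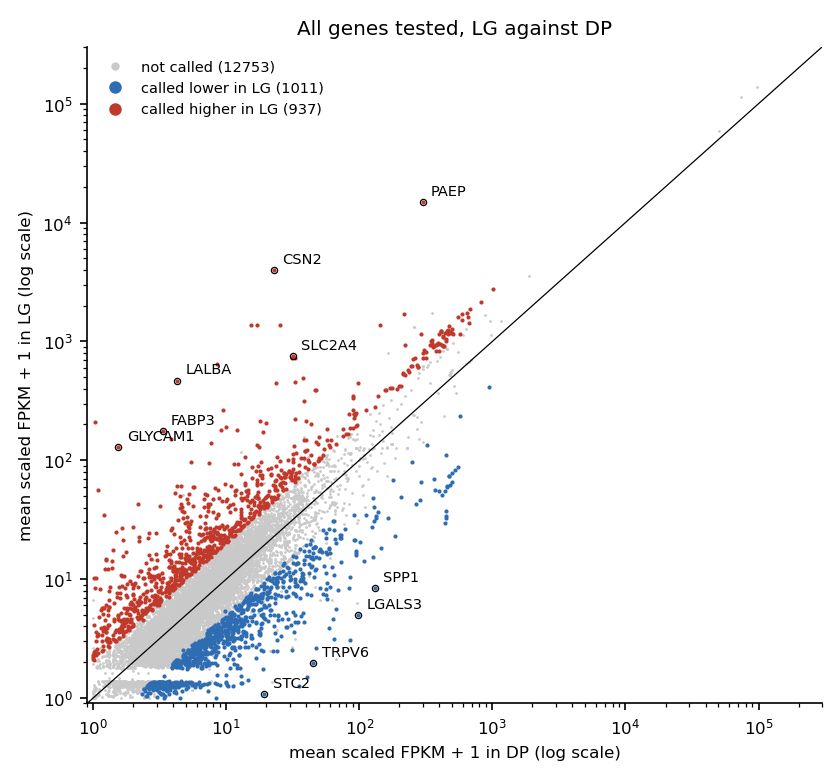
Mean scaled FPKM in DP (x axis, log scale, 1 added) against LG (y axis, log scale, 1 added) for the 14701 genes tested, each point the mean of 3 libraries. The 937 genes called higher in LG are red, the 1011 called lower are blue, and labelled genes such as CSN2 and PAEP stand far above the diagonal while TRPV6 and STC2 stand far below it.

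The labelled tissue was checked against defining markers. Luminal epithelial markers were present in every DP and LG library. KRT8, a luminal keratin, was at 107, 221 and 102 FPKM in DP and 79.1, 90.9 and 102 FPKM in LG, and EPCAM, an epithelial adhesion protein, was at 59.3, 51.3 and 31.1 FPKM in DP and 71.7, 63.7 and 69.7 FPKM in LG. The muscle markers ACTA1, CKM and MB stayed at 0.17 FPKM or less, but the skeletal muscle genes together summed to 20.9 to 28.2 FPKM in DP and 17.0 to 19.6 FPKM in LG. The skin and hair genes and the red cell genes, described further on, summed to 4.02 to 4.24 and 8.06 to 12.6 FPKM in DP and to 37.6 to 104.5 and 11.2 to 28.03 FPKM in LG. Because the samples were whole tissue, more cells of a type and more RNA per cell cannot be told apart in any result that follows.

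Milk protein genes had the highest median of the 36 gene lists. Of the 15 milk protein genes tested, 12 were called higher and 1 lower, with a median log2 fold change of 4.75. With genes that shared values left out, 12 were tested, 9 were called higher and 1 lower, and the median was 4.02. CSN2, which encodes beta-casein (gene identifier 100860784, chromosome 6, 86006250 to 86015321), was at 30.96, 17.6 and 47.8 FPKM in DP and 3851, 6044 and 4919 FPKM in LG, a log2 fold change of 7.52 (SE 0.32, adjusted p = 1.30e-06). The lowest LG library was 80.5 times the highest DP library. PAEP, the gene of beta-lactoglobulin and the most abundant milk protein gene of LG, was at 422, 322 and 565 FPKM in DP and 14438, 21408 and 19992 FPKM in LG, a log2 fold change of 5.66 (SE 0.22, adjusted p = 1.00e-06). LALBA encodes alpha-lactalbumin, the regulatory part of lactose synthase, and was at 6.92, 3.84 and 3.74 FPKM in DP and 1079, 489.7 and 130.3 FPKM in LG, a log2 fold change of 6.30 (SE 0.68, adjusted p = 0.000203). The LG goats differed widely in LALBA, with LG1 far above LG3, and both GLYCAM1 and KRTAP11-1 followed the same order of goats. GLYCAM1, a mucin-like whey protein, was at 0.99, 0.95 and 0.49 FPKM in DP and 244, 149.5 and 75.2 FPKM in LG, a log2 fold change of 6.20 (SE 0.37, adjusted p = 1.22e-05). BTN1A1 and XDH encode the 2 proteins that anchor the milk fat globule membrane. BTN1A1 was at 0.37, 0.32 and 0.25 FPKM in DP and 37.5, 24.6 and 65.7 FPKM in LG, a log2 fold change of 4.75 (SE 0.29, adjusted p = 1.23e-05). XDH was at 33.9, 36.1 and 30.02 FPKM in DP and 476, 524 and 662 FPKM in LG, a log2 fold change of 4.22 (SE 0.21, adjusted p = 3.96e-06), and its LG mean of 554 FPKM stood beside an LL mean of 499.6 FPKM, whereas the CSN2 mean was 4938 FPKM in LG and 94297 FPKM in LL. CD14, a soluble pattern receptor of milk that macrophages also make, was the single member that fell, from 12.1, 28.1 and 28.5 FPKM in DP to 3.15, 5.47 and 3.50 FPKM in LG.

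The 6 genes of the caseins and major whey proteins (CSN1S1, CSN1S2, CSN2, CSN3, LALBA and PAEP) held 0.0915% ± 0.0218 (SD, n = 3) of summed FPKM in DP and 3.89% ± 0.691 (SD, n = 3) in LG, against 38.7% in LL. The DP and LG ranges did not overlap, and the exact two-sided permutation test gave p = 0.1, the smallest value that 3 against 3 allows. CSN1S1, CSN1S2 and CSN3 shared 1 set of values, described at the end. With all genes that shared values left out, also from the sum, CSN2, LALBA and PAEP held 0.0875% in DP, 3.56% in LG and 22.5% in LL. These shares cover fewer genes and a smaller sum than those of the 6 genes.

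**Figure D2:**
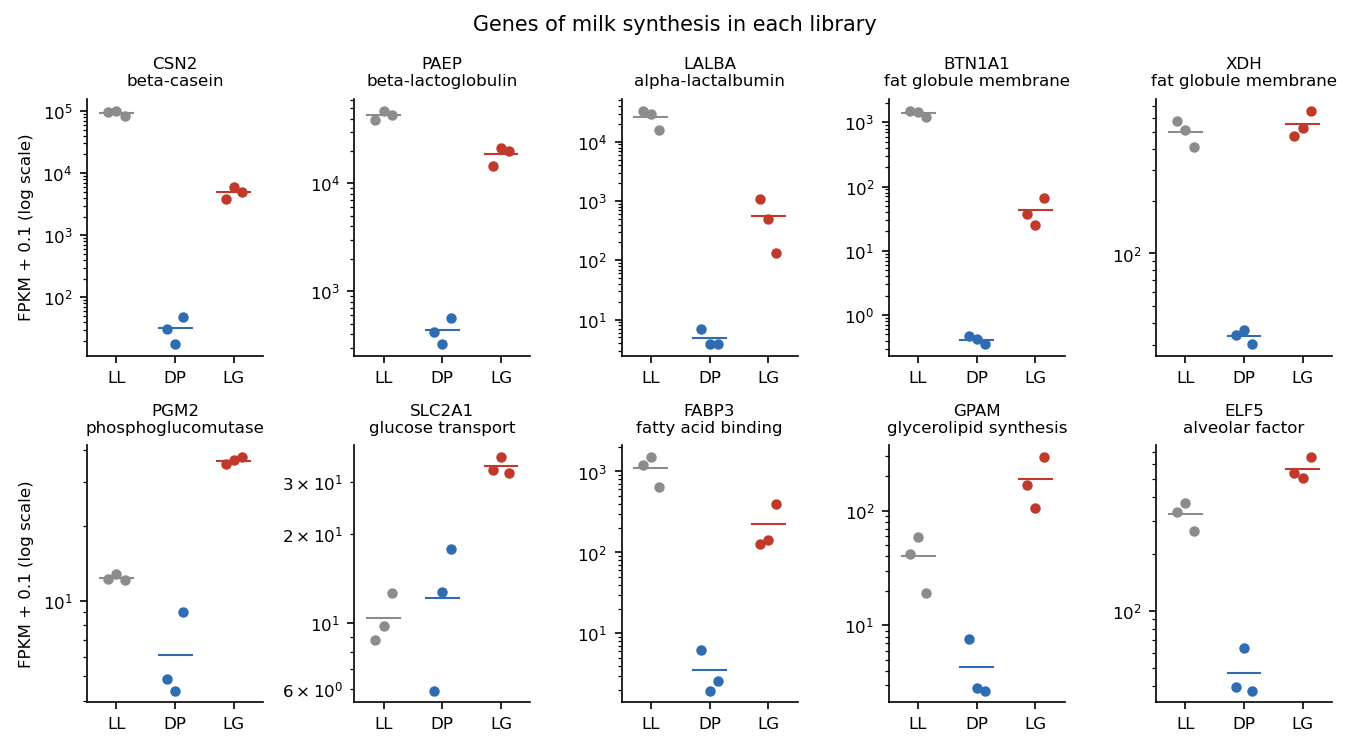
FPKM as deposited (log scale, 0.1 added) of 10 genes of milk synthesis in every library of LL, DP and LG, 1 point per goat and a short bar at the mean of 3. In each panel the 3 LG points lie above the 3 DP points, and for CSN2 and LALBA the LL points lie higher still.

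Most genes of milk sugar synthesis were called higher in LG. Of the 15 lactose synthesis and glucose uptake genes tested, 11 were called higher and 0 lower (2 at an unadjusted p under 0.05 in limma), with a median log2 fold change of 1.71. The glucose transporter SLC2A3, which is not in this list, was called lower (-1.90) and is described with its family in the last section. PGM2, a phosphoglucomutase, was at 4.76, 4.28 and 8.98 FPKM in DP and 35.03, 36.4 and 37.5 FPKM in LG, a log2 fold change of 2.62 (SE 0.22, adjusted p = 6.58e-05). UGP2, which makes UDP-glucose, was at 47.4, 57.7 and 96.2 FPKM in DP and 172, 164 and 195 FPKM in LG, a log2 fold change of 1.67 (SE 0.25, adjusted p = 0.00103). The catalytic part of lactose synthase, B4GALT1, was at 32.2, 31.9 and 39.7 FPKM in DP and 87.99, 84.4 and 107 FPKM in LG, a log2 fold change of 1.62 (SE 0.22, adjusted p = 0.000545), but its value was shared with its neighbour SMU1. Glucose uptake was represented by SLC2A1, the main glucose transporter of the lactating gland, at 5.83, 12.6 and 17.7 FPKM in DP and 32.8, 36.2 and 31.9 FPKM in LG, a log2 fold change of 1.71 (SE 0.31, adjusted p = 0.0026), and by the intracellular transporter SLC2A8, at 4.59, 5.19 and 4.45 FPKM in DP and 68.2, 76.6 and 77.3 FPKM in LG, a log2 fold change of 3.83 (SE 0.13, adjusted p = 7.04e-07). Both were clear of the DP range.

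Genes of fatty acid synthesis were called in both directions. Of the 19 fatty acid synthesis genes tested, 6 were called higher and 2 lower, with a median log2 fold change of 0.81. ACACA, which makes malonyl-CoA, was at 9.19, 8.05 and 7.42 FPKM in DP and 17.1, 16.6 and 18.2 FPKM in LG, a log2 fold change of 1.18 (SE 0.20, adjusted p = 0.00211). SCD, the stearoyl-CoA desaturase, was at 13.8, 6.56 and 8.19 FPKM in DP and 42.9, 73.4 and 244 FPKM in LG, a log2 fold change of 3.38 (SE 0.54, adjusted p = 0.00141), with LG3 far above LG1 and LG2. ACSS2, which activates acetate, the main carbon source of ruminant milk fat, was at 44.7, 21.9 and 10.8 FPKM in DP and 114, 119 and 127 FPKM in LG, a log2 fold change of 2.60 (SE 0.43, adjusted p = 0.00165). ACLY, the citrate-cleaving enzyme that ruminant mammary tissue uses little, was at 19.3, 14.5 and 21.6 FPKM in DP and 15.4, 12.6 and 17.9 FPKM in LG and did not pass the test (log2 fold change -0.03, adjusted p = 0.908). SREBF1, the lipogenic transcription factor, had no overlap between stages but a log2 fold change of 0.80 (adjusted p = 0.00574), under the limit of 1. FASN, the fatty acid synthase, was at 89.2, 61.2 and 56.3 FPKM in DP and 347, 466 and 668 FPKM in LG, a log2 fold change of 3.03 (SE 0.33, adjusted p = 0.000213), with its value shared with CCDC57.

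Of the 22 fatty acid uptake and triglyceride genes tested, 10 were called higher and 2 lower, with a median log2 fold change of 0.96. FABP3, the fatty acid binding protein of milk-secreting cells, was at 6.10, 1.86 and 2.47 FPKM in DP and 127, 143 and 395 FPKM in LG, a log2 fold change of 5.63 (SE 0.49, adjusted p = 7.57e-05). GPAM, which catalyses the first step of glycerolipid synthesis, was at 7.45, 2.77 and 2.59 FPKM in DP and 168, 105 and 295 FPKM in LG, a log2 fold change of 5.27 (SE 0.50, adjusted p = 0.000118), above the LL mean of 40.3 FPKM in every LG goat. CD36, a fatty acid receptor of the milk fat globule, was at 30.2, 26.99 and 17.2 FPKM in DP and 225, 292 and 283 FPKM in LG, a log2 fold change of 3.61 (SE 0.23, adjusted p = 1.88e-05). PLIN2, the lipid droplet coat protein, was at 46.4, 77.8 and 40.2 FPKM in DP and 309, 436 and 434 FPKM in LG, a log2 fold change of 3.08 (SE 0.27, adjusted p = 8.51e-05). LPL, which frees fatty acids from lipoproteins, was at 5.31, 3.47 and 6.99 FPKM in DP and 27.1, 18.8 and 25.8 FPKM in LG, a log2 fold change of 2.16 (SE 0.24, adjusted p = 0.000256), and stayed far below the LL mean of 375 FPKM. AGPAT2 and LPIN1, acyltransferase and phosphatidate phosphatase genes of the same pathway, fell. LPIN1 was at 6.66, 7.03 and 3.89 FPKM in DP and 0.84, 1.16 and 1.76 FPKM in LG, a log2 fold change of -1.31 (SE 0.21, adjusted p = 0.00165). AGPAT2 had a log2 fold change of -1.06, which became -0.92 without DP3 and was then not called.

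Of the 21 cholesterol synthesis genes tested, 4 were called higher and 0 lower (0 at an unadjusted p under 0.05 in limma), with a median log2 fold change of 0.68. SQLE, squalene epoxidase, was at 7.48, 5.68 and 9.74 FPKM in DP and 29.9, 18.7 and 37.3 FPKM in LG, a log2 fold change of 1.92 (SE 0.26, adjusted p = 0.000578). Of the 29 NADPH and citric acid cycle genes tested, 8 were called higher and 1 lower, with a median log2 fold change of 0.70. TKT, transketolase of the pentose phosphate pathway, was at 28.7, 22.6 and 21.9 FPKM in DP and 134, 191 and 159.8 FPKM in LG, a log2 fold change of 2.88 (SE 0.23, adjusted p = 5.20e-05). IDH1, the cytosolic isocitrate dehydrogenase that supplies NADPH for fat synthesis in ruminants, was at 28.8, 19.7 and 29.5 FPKM in DP and 120.4, 94.8 and 43.6 FPKM in LG, a log2 fold change of 1.81 (SE 0.43, adjusted p = 0.0101).

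The list of ribosomal proteins held the most genes called higher. Of the 79 ribosomal protein genes tested, 62 were called higher and 0 lower (0 at an unadjusted p under 0.05 in limma), with a median log2 fold change of 1.25. RPL36AL, whose values are described at the end, is a member of this list. RPLP0, of the ribosomal stalk, was at 899, 857 and 840.2 FPKM in DP and 2101, 2235 and 1989 FPKM in LG, a log2 fold change of 1.52 (SE 0.15, adjusted p = 0.000145). RPS6, a small subunit protein, was at 799, 717 and 689 FPKM in DP and 1736, 1543 and 1475 FPKM in LG, a log2 fold change of 1.34 (SE 0.16, adjusted p = 0.00031). The LG libraries of both genes were above all DP libraries before and after scaling. This result depended on how libraries were scaled: with quantile normalization 3 of the 79 genes were called higher and the list's median was 0.30, with RPS6 at 0.22 and RPLP0 at 0.99, and with quantile normalization of the DP and LG libraries alone, a setting added after the values were seen, 1 was called higher. Without scaling 43 were called higher, with a median of 1.02. Of the 59 translation factor genes tested, 12 were called higher and 2 lower, with a median log2 fold change of 0.32 (0.16 without LG3). EEF1B2, an exchange factor of elongation, was at 365, 314 and 285 FPKM in DP and 1371, 1053 and 1058 FPKM in LG, a log2 fold change of 2.08 (SE 0.18, adjusted p = 7.28e-05). EEF1A1, the elongation factor that carries aminoacyl tRNA, was at 1499, 1529 and 1413 FPKM in DP and 3135, 3572 and 3599 FPKM in LG, a log2 fold change of 1.45 (SE 0.14, adjusted p = 0.000143), but at -0.10 with quantile normalization of all 9 libraries and -0.26 with that of DP and LG alone, and under each 4 translation factor genes were called higher. EIF4EBP1, a repressor of cap-dependent initiation, was at 46.1, 79.4 and 45.2 FPKM in DP and 142, 171 and 245 FPKM in LG, a log2 fold change of 1.93 (SE 0.26, adjusted p = 0.000601), and shared its value with ASH2L.

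Synthetases, chaperones and transporters serve the making and export of secreted protein. Of the aminoacyl tRNA synthetase genes, 21 were tested and 0 called (8 higher and 0 lower at an unadjusted p under 0.05 in limma), with a median log2 fold change of 0.30. ASNS, the asparagine synthetase gene kept with them, was at 3.29, 4.95 and 5.80 FPKM in DP and 2.17, 1.98 and 3.93 FPKM in LG, and WARS1 was not analysed here. Of the 48 ER translocation and folding genes tested, 2 were called higher and 0 lower (0 at an unadjusted p under 0.05 in limma), with a median log2 fold change of 0.37. Their share of higher calls was 4.17%, below the 6.37% of all genes. The called genes were SSR4, of the translocon-associated complex, at 131, 121 and 139 FPKM in DP and 437, 421 and 382 FPKM in LG (1.89), and SEC11C, of the signal peptidase, at 18.8, 16.98 and 19.9 FPKM in DP and 61.1, 58.7 and 57.9 FPKM in LG (1.83). The chaperone HSPA5 was at 93.8, 88.95 and 173 FPKM in DP and 121, 114 and 197 FPKM in LG, the secretory regulator XBP1 at 121, 75.7 and 107 FPKM in DP and 102, 85.2 and 111 FPKM in LG, and SEC61B, of the translocation channel, had a log2 fold change of 0.56 (adjusted p = 0.0215). Of the 41 ER to Golgi transport genes tested, 0 were called higher (23 at an unadjusted p under 0.05 in limma) and 1 lower, with a median log2 fold change of 0.45. Their share called in either direction was 2.44%, below the 13.3% of all genes. Without DP3 3 were called higher. SEC24D, SAR1A and KDELR3, of vesicle coats and retrieval, had log2 fold changes of 0.39, 0.57 and 0.08 with overlapping stages. Of the 20 amino acid transporter genes tested, 4 were called higher and 4 lower, with a median log2 fold change of -0.08. SLC1A5, a glutamine transporter, was at 15.4, 18.1 and 25.98 FPKM in DP and 45.3, 59.3 and 44.7 FPKM in LG, a log2 fold change of 1.51 (SE 0.21, adjusted p = 0.000679), and SLC6A14, which carries neutral and basic amino acids, was at 6.98, 9.04 and 7.79 FPKM in DP and 21.5, 16.7 and 46.8 FPKM in LG, a log2 fold change of 1.76 (SE 0.30, adjusted p = 0.00181). SLC7A2 and SLC7A7, of cationic amino acid transport, fell with log2 fold changes of -1.33 and -1.13. SLC7A5 and SLC38A2 overlapped between stages, at 0.11 and -0.44.

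Mitochondria supply energy for secretion. Of the 55 oxidative phosphorylation genes tested, 12 were called higher and 0 lower (0 at an unadjusted p under 0.05 in limma), with a median log2 fold change of 0.80. NDUFA4, a respiratory chain subunit, was at 31.03, 30.4 and 35.97 FPKM in DP and 73.1, 58.5 and 73.3 FPKM in LG, a log2 fold change of 1.27 (SE 0.17, adjusted p = 0.000612), and ATP5G2, of the ATP synthase ring, was at 147, 112 and 109 FPKM in DP and 295, 317 and 296 FPKM in LG, a log2 fold change of 1.54 (SE 0.16, adjusted p = 0.000154). The count of called genes was 5 without scaling and 6 with quantile normalization. COX5A and ATP5F1B were not analysed here. Of the 76 mitochondrial ribosomal protein genes tested, 5 were called higher and 1 lower, with a median log2 fold change of 0.42. Their share of higher calls was close to the 6.37% of all genes. MRPL12 and MRPS12 had log2 fold changes of 0.87 and 0.63, under the limit of 1, and MRPL52, whose value was shared with a neighbour, was the single gene called lower. Without scaling, 0 were called higher, whereas limma gave 46 higher at an unadjusted p under 0.05 with scaling.

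Calls among cell division genes were all higher in LG, at low levels. Of the 37 cell division genes tested, 16 were called higher and 0 lower (0 at an unadjusted p under 0.05 in limma), with a median log2 fold change of 0.93. TOP2A, the topoisomerase of dividing cells, was at 2.51, 1.44 and 1.19 FPKM in DP and 15.98, 8.19 and 11.5 FPKM in LG, a log2 fold change of 2.26 (SE 0.24, adjusted p = 0.000179). CDK1, the mitotic kinase, was at 2.01, 0.82 and 0.73 FPKM in DP and 10.1, 4.11 and 8.34 FPKM in LG, a log2 fold change of 1.93 (SE 0.27, adjusted p = 0.000675), and its partner CCNB1 was at 2.03, 1.27 and 1.70 FPKM in DP and 9.04, 4.33 and 7.01 FPKM in LG, a log2 fold change of 1.56 (SE 0.23, adjusted p = 0.00092). For all 3 genes LG2 was the lowest LG library and DP1 the highest DP library, and the stages did not overlap. NUSAP1, of the mitotic spindle, rose by a log2 fold change of 1.65, and BIRC5, also of mitosis, was at 0.95, 0.42 and 0.54 FPKM in DP and 6, 3.15 and 4.33 FPKM in LG. MKI67, the common proliferation marker, was at 0.60, 0.23 and 0.27 FPKM in DP and 1.49, 1.07 and 1.23 FPKM in LG, and its log2 fold change of 0.69 was under the limit of 1 with a pseudocount of 1 but was 1.73 with a pseudocount of 0.1. Of the 39 DNA replication genes tested, 8 were called higher and 0 lower (0 at an unadjusted p under 0.05 in limma), with a median log2 fold change of 0.50. MCM2, of the replicative helicase, was at 2.38, 1.57 and 1.92 FPKM in DP and 5.62, 4.50 and 6.41 FPKM in LG, a log2 fold change of 1.21 (SE 0.13, adjusted p = 0.000193), and RRM2, which makes deoxyribonucleotides, was at 1.42, 0.81 and 0.78 FPKM in DP and 4.65, 2.49 and 4.77 FPKM in LG, a log2 fold change of 1.29 (SE 0.22, adjusted p = 0.00198). PCNA, the sliding clamp, had a log2 fold change of 0.72 (adjusted p = 0.0131).

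**Figure D3:**
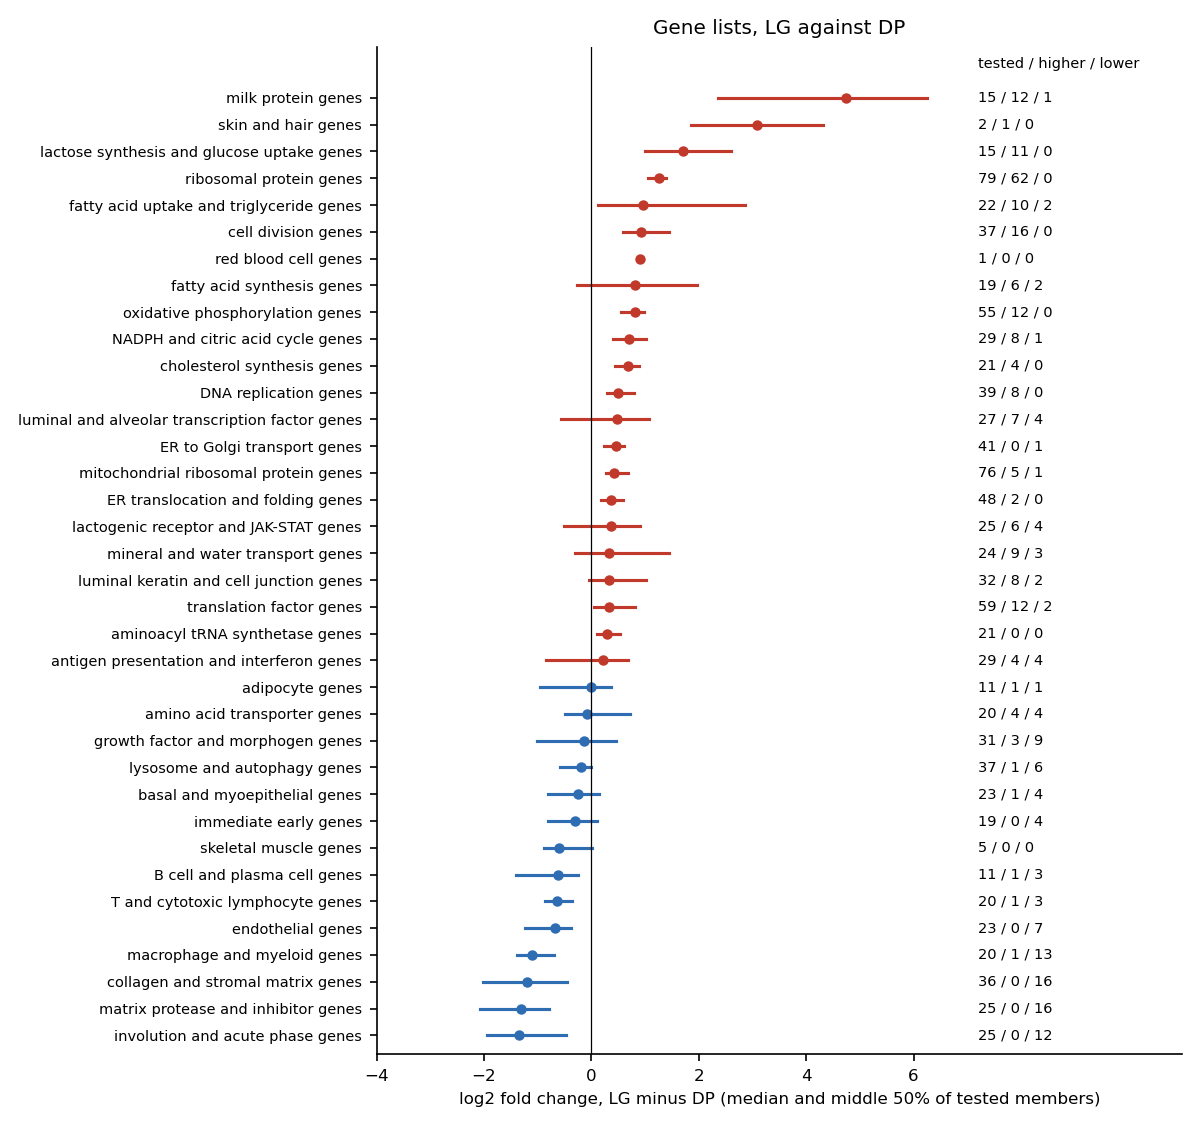
Log2 fold change (LG minus DP, x axis) of the tested members of 36 gene lists, 1 row per list ordered by its median, with a dot at the median and a line over the middle 50% of members. Numbers at the right are members tested, called higher and called lower. Milk protein genes have the highest median at 4.75 and involution and acute phase genes the lowest at -1.34.

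Receptors and regulators of the alveolar epithelium moved in both directions. Of the 25 lactogenic receptor and JAK-STAT genes tested, 6 were called higher and 4 lower, with a median log2 fold change of 0.36. PRLR, the prolactin receptor, was at 36.3, 33.7 and 21.6 FPKM in DP and 83.6, 79.2 and 124 FPKM in LG, a log2 fold change of 1.84 (SE 0.22, adjusted p = 0.000324). The receptors of the ovarian steroids rose too, with ESR1 at 20.8, 10.03 and 7.91 FPKM in DP and 32.1, 31.4 and 31.6 FPKM in LG, a log2 fold change of 1.54 (SE 0.30, adjusted p = 0.00365), and PGR at 6.61, 3.34 and 5.69 FPKM in DP and 17.6, 21.99 and 13.9 FPKM in LG, a log2 fold change of 1.76 (SE 0.23, adjusted p = 0.000495). The 3 LG goats had nearly the same ESR1 value. SOCS3, an inhibitor of JAK-STAT signalling, was at 19.02, 13.8 and 45.05 FPKM in DP and 1.17, 2.72 and 1.58 FPKM in LG, a log2 fold change of -2.79 (SE 0.37, adjusted p = 0.000538). GHR, the growth hormone receptor, and IRS2, an insulin receptor substrate, fell with log2 fold changes of -1.58 and -1.78. SOCS2 was at 4.99, 11.1 and 12.8 FPKM in DP and 22.98, 15.2 and 10.4 FPKM in LG, with overlapping stages, and was called without DP3 (1.13) or LG3 (1.19). STAT5A was not analysed here. Of the 27 luminal and alveolar transcription factor genes tested, 7 were called higher and 4 lower, with a median log2 fold change of 0.47. ELF5 was at 39.5, 63.7 and 37.6 FPKM in DP and 539.8, 504 and 654 FPKM in LG, a log2 fold change of 3.82 (SE 0.25, adjusted p = 2.09e-05), and BHLHA15, a factor of secretory cells, was at 3.33, 1.53 and 0.60 FPKM in DP and 19.99, 30.1 and 30.4 FPKM in LG, a log2 fold change of 3.40 (SE 0.32, adjusted p = 0.000122). GATA3, a luminal factor, was at 13.9, 6.93 and 4.45 FPKM in DP and 14.5, 14.5 and 20.03 FPKM in LG, a log2 fold change of 1.17 (SE 0.33, adjusted p = 0.023), but was not called without DP2, DP3, LG1 or LG3 (log2 fold change 0.86 to 1.21, adjusted p 0.0518 to 0.0739). FOXA1, a partner of the oestrogen receptor, was at 4.84, 2.52 and 1.21 FPKM in DP and 0.42, 0.12 and 0.57 FPKM in LG. Without LG2 2 genes of this list were called lower. KIT, a receptor of luminal progenitors, and TBX3 fell with log2 fold changes of -1.49 and -1.25.

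Keratins and junction proteins define the layers of the epithelium. Of the 32 luminal keratin and cell junction genes tested, 8 were called higher and 2 lower, with a median log2 fold change of 0.32. CLDN8, a tight junction protein, was at 12.8, 7.65 and 5.38 FPKM in DP and 59.1, 58.96 and 27.6 FPKM in LG, a log2 fold change of 2.53 (SE 0.33, adjusted p = 0.000505), and FOLR1, a folate receptor of secretory epithelium, was at 0.05, 0.10 and 0.00 FPKM in DP and 10.1, 7.85 and 9.74 FPKM in LG, a log2 fold change of 3.01 (SE 0.24, adjusted p = 5.20e-05). KRT18 had a log2 fold change of -0.89 (adjusted p = 0.0239), which passed the limit without DP3 (-1.10), without scaling (-1.12) and with quantile normalization (-1.14). CDH1, the epithelial cadherin, was at 26.6, 33.1 and 20.9 FPKM in DP and 24.2, 25.2 and 25.5 FPKM in LG. Of the 23 basal and myoepithelial genes tested, 1 was called higher and 4 lower, with a median log2 fold change of -0.25. KRT5 and KRT14, the basal keratins, were highest in DP2, at 479.5 and 90.8 FPKM, and ACTA2, the contractile actin, was highest in DP3, at 203 FPKM. Their log2 fold changes were -0.07, 0.63 and 0.05, and without DP2 KRT14 was called at 1.20. TP63, the basal transcription factor, stayed between 2.93 and 4.41 FPKM in all 6 libraries. OXTR, the oxytocin receptor of milk ejection, was at 1.75, 1.75 and 0.45 FPKM in DP and 6.27, 3.79 and 4.71 FPKM in LG. VIM, an intermediate filament that stromal cells also carry, was at 366, 606 and 993 FPKM in DP and 96.9, 152 and 161 FPKM in LG, a log2 fold change of -1.93 (SE 0.36, adjusted p = 0.00322).

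Of the 31 growth factor and morphogen genes tested, 3 were called higher and 9 lower, with a median log2 fold change of -0.14. Without DP3 6 were called higher and 5 lower, without DP2 2 and 5, without LG1 2 and 4, without DP1 1 and 8 and without LG2 1 and 6. FGF1, a fibroblast growth factor, was at 132, 138 and 157 FPKM in DP and 626, 524 and 519 FPKM in LG, a log2 fold change of 2.19 (SE 0.19, adjusted p = 7.38e-05). TGFB3, a cytokine of milk stasis, was at 9.53, 10.2 and 26.9 FPKM in DP and 1.68, 1.78 and 2.32 FPKM in LG, a log2 fold change of -2.05 (SE 0.33, adjusted p = 0.00153), and CSF1, the growth factor of macrophages, was at 15.1, 12.2 and 12.98 FPKM in DP and 1.95, 2.98 and 4.04 FPKM in LG, a log2 fold change of -1.60 (SE 0.16, adjusted p = 0.000134). AREG, TNFSF11 and WNT4, local signals that follow oestrogen and progesterone in ductal and alveolar growth, were called lower but lost the call when some single libraries were left out. AREG was at 27.1, 11.8 and 1.72 FPKM in DP and 0.62, 0.25 and 1.21 FPKM in LG (-2.25) and was not called without DP2, LG1 or LG2 (log2 fold change -2.23 to -2.05, adjusted p 0.0544 to 0.0615). TNFSF11 was at 5.23, 9.25 and 1.60 FPKM in DP and 0.31, 0.39 and 0.35 FPKM in LG (-1.68) and was not called without DP2, LG1 or LG3 (log2 fold change -1.65 to -1.23, adjusted p 0.0526 to 0.0616). WNT4 was at 3.88, 13.5 and 5.56 FPKM in DP and 1.27, 0.90 and 2.99 FPKM in LG (-1.31) and was not called without LL2, DP2, DP3, LG1 or LG2 (log2 fold change -1.40 to -0.85, adjusted p 0.0508 to 0.109). IGF1 was at 14.6, 7.93 and 22.3 FPKM in DP and 8.02, 12.6 and 14.4 FPKM in LG, with overlapping stages.

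Mineral and water transport genes were called in both directions. Of the 24 mineral and water transport genes tested, 9 were called higher and 3 lower, with a median log2 fold change of 0.33. The median was 0.61 without DP2, 0.79 without DP3 and 0.13 without LG3, and 6 were called higher without LG3. TRPV6, an epithelial calcium channel, fell more than any other gene named here, from 56.6, 26.01 and 112 FPKM in DP to 0.57, 2.51 and 0.53 FPKM in LG, a log2 fold change of -4.38 (SE 0.50, adjusted p = 0.000266). Its relative TRPV5 was at 1.97, 0.96 and 3.65 FPKM in DP and 0.04, 0.08 and 0.04 FPKM in LG. ATP2C2, the Golgi calcium pump of secretory cells, was at 0.94, 1.03 and 0.51 FPKM in DP and 8.68, 7.35 and 12.5 FPKM in LG, a log2 fold change of 2.44 (SE 0.18, adjusted p = 4.04e-05). SLC34A2, a phosphate transporter, was at 0.64, 0.08 and 0.12 FPKM in DP and 1.51, 9.78 and 4.12 FPKM in LG, a log2 fold change of 1.90 (SE 0.44, adjusted p = 0.00894). ATP2B2, the calcium pump of the apical membrane, stayed between 1.14 and 1.95 FPKM and did not pass the test. Of the water channels, AQP5, of glandular epithelium, was at 0.01, 0.00 and 0.02 FPKM in DP and 26.5, 3.81 and 3.41 FPKM in LG, and AQP1, of small vessels, was at 137, 173 and 248 FPKM in DP and 37.5, 31.4 and 43.04 FPKM in LG, a log2 fold change of -2.01 (SE 0.23, adjusted p = 0.00027). FTH1, the ferritin heavy chain, was at 284, 212 and 458 FPKM in DP and 2139, 2129.9 and 2115 FPKM in LG, a log2 fold change of 3.05 (SE 0.26, adjusted p = 7.51e-05), and the highest LG value was 1.01 times the lowest.

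Genes of connective tissue held calls in 1 direction, lower in LG. Of the 36 collagen and stromal matrix genes tested, 0 were called higher (1 at an unadjusted p under 0.05 in limma) and 16 lower, with a median log2 fold change of -1.19. Without DP3 2 were called higher and 13 lower and the median was -0.53. PDGFRA, a receptor of fibroblasts, was at 35.4, 35.1 and 48.02 FPKM in DP and 5.26, 5.77 and 4.66 FPKM in LG, a log2 fold change of -2.41 (SE 0.20, adjusted p = 6.58e-05), and MGP, a matrix calcification inhibitor, was at 416, 428 and 741 FPKM in DP and 87.2, 78.8 and 93.1 FPKM in LG, a log2 fold change of -2.31 (SE 0.24, adjusted p = 0.000166). FBLN1 and THBS2, matrix glycoproteins, had log2 fold changes of -2.71 and -2.53. The fibrillar collagens COL1A1 and COL3A1 were not among the genes called lower. COL1A1 was at 54.5, 127 and 475 FPKM in DP and 76.4, 187 and 84.8 FPKM in LG and COL3A1 at 219, 336 and 1149 FPKM in DP and 321, 580.0 and 483 FPKM in LG. Both were highest in DP3 and overlapped between stages. POSTN, a matrix protein of remodelling tissue, was at 49.9, 61.8 and 49.5 FPKM in DP and 2.63, 10.6 and 19.5 FPKM in LG, a log2 fold change of -2.25 (SE 0.55, adjusted p = 0.012). Of the 25 matrix protease and inhibitor genes tested, 0 were called higher (1 at an unadjusted p under 0.05 in limma) and 16 lower, with a median log2 fold change of -1.31. MMP2, a gelatinase of stromal cells, was at 69.1, 206 and 164 FPKM in DP and 19.8, 27.8 and 25.3 FPKM in LG, a log2 fold change of -2.17 (SE 0.38, adjusted p = 0.0021). TIMP1, an inhibitor of these proteases, was at 45.3, 48.1 and 185 FPKM in DP and 8.94, 15.4 and 12.8 FPKM in LG, a log2 fold change of -2.27 (SE 0.47, adjusted p = 0.00497), and TIMP2 was at 43.7, 80.2 and 173 FPKM in DP and 6.26, 12.7 and 7.83 FPKM in LG, a log2 fold change of -2.90 (SE 0.45, adjusted p = 0.00117). MMP9, the gelatinase of leukocytes, was at 2.50, 4.22 and 2.74 FPKM in DP and 0.25, 0.04 and 0.04 FPKM in LG, a log2 fold change of -1.52 (SE 0.39, adjusted p = 0.0141), and at -1.31 (adjusted p = 0.0525) without DP2.

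Genes that mark involution held calls lower in LG. Of the 25 involution and acute phase genes tested, 0 were called higher (1 at an unadjusted p under 0.05 in limma) and 12 lower, with a median log2 fold change of -1.34. LGALS3, a lectin of macrophages and involuting epithelium, was at 63.1, 186 and 172 FPKM in DP and 3.45, 5.13 and 6.51 FPKM in LG, a log2 fold change of -4.15 (SE 0.45, adjusted p = 0.000203). SPP1, osteopontin, was at 175, 169 and 226 FPKM in DP and 14.2, 3.36 and 10.2 FPKM in LG, a log2 fold change of -4.11 (SE 0.42, adjusted p = 0.000157). SPP1 also stood far higher in LL, with a mean of 1488 FPKM, and LGALS3 did not, with 18.7 FPKM. OSMR, the oncostatin M receptor of involution signalling, was at 26.02, 41.3 and 55.03 FPKM in DP and 3.08, 4.10 and 6.53 FPKM in LG, a log2 fold change of -2.61 (SE 0.33, adjusted p = 0.000387). IGFBP5, an inhibitor of IGF survival signals, was at 17.8, 25.1 and 24.4 FPKM in DP and 12.2, 19.7 and 10.04 FPKM in LG and was not called (-0.45), and LIF was at 0.97 FPKM or less and was not tested. Of the 37 lysosome and autophagy genes tested, 1 was called higher and 6 lower, with a median log2 fold change of -0.20. CTSH and CTSL, cysteine cathepsins, were the members that fell most. CTSH was at 78.9, 109.7 and 79.6 FPKM in DP and 13.9, 13.8 and 16.4 FPKM in LG, a log2 fold change of -2.26 (SE 0.18, adjusted p = 6.47e-05), and CTSL at 8.32, 13.5 and 2.79 FPKM in DP and 0.39, 0.34 and 0.30 FPKM in LG, a log2 fold change of -2.19 (SE 0.36, adjusted p = 0.00166). CTSD had a log2 fold change of -0.59, LAMP1 of 0.03 and the autophagy receptor SQSTM1 of -1.04, the last not called without DP2 (-0.94) or LG1 (-0.96). ATP6V1A, of the proton pump, rose with a log2 fold change of 1.30.

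**Figure D4:**
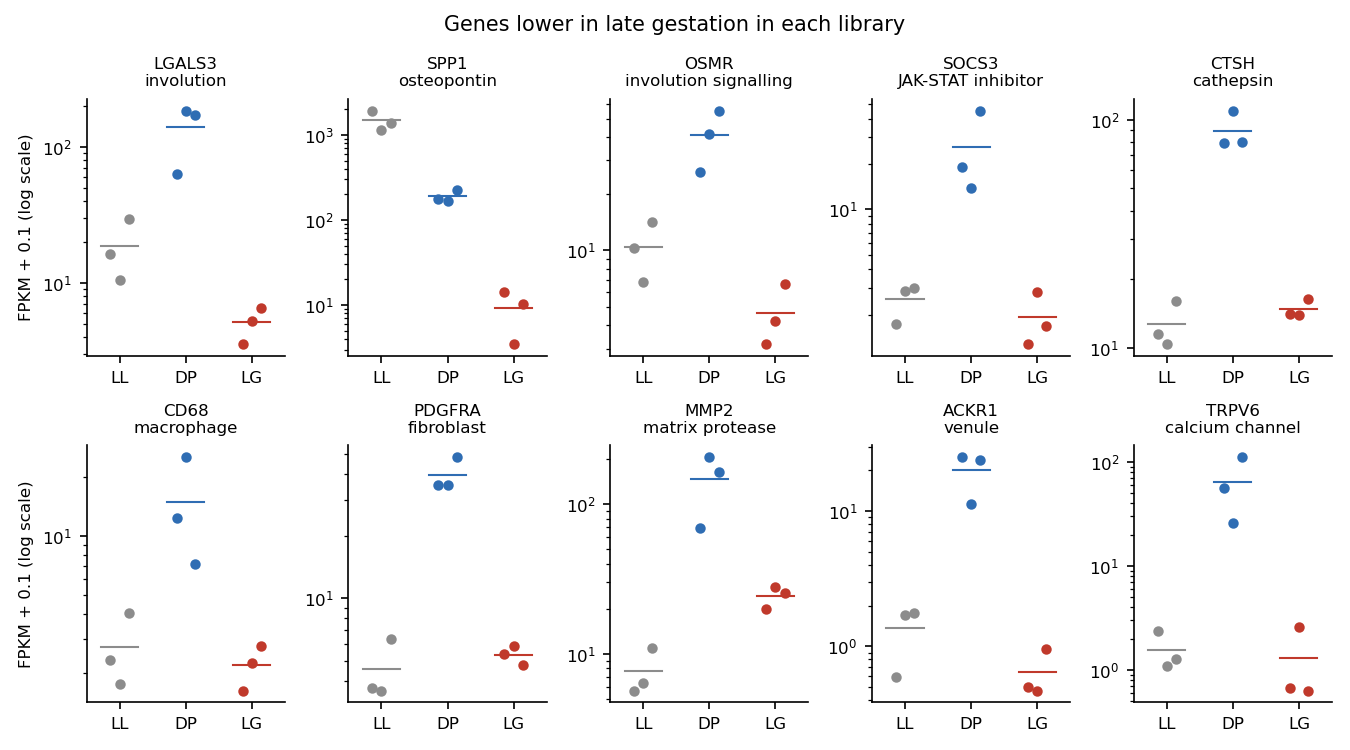
FPKM as deposited (log scale, 0.1 added) of 10 genes of involution, stroma, immune cells and calcium transport in every library, 1 point per goat and a short bar at the mean of 3. In each panel the 3 LG points lie below the 3 DP points, and for SPP1 the LL points lie above both.

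Calls among immune cell genes were mostly lower in LG. Of the 20 macrophage and myeloid genes tested, 1 was called higher and 13 lower, with a median log2 fold change of -1.11. CD68, a lysosomal marker of macrophages, was at 12.3, 25.04 and 7.07 FPKM in DP and 1.53, 2.15 and 2.66 FPKM in LG, a log2 fold change of -1.90 (SE 0.37, adjusted p = 0.00389), and CSF1R, the receptor of CSF1, was at 51.7, 27.2 and 36.7 FPKM in DP and 11.3, 12.6 and 11.7 FPKM in LG, a log2 fold change of -1.33 (SE 0.20, adjusted p = 0.00105). TYROBP, a signalling adaptor of myeloid cells, was at 48.2, 51.6 and 29.6 FPKM in DP and 11.2, 10.9 and 10.8 FPKM in LG, a log2 fold change of -1.59 (SE 0.21, adjusted p = 0.000497). MRC1, the mannose receptor, was at 17.3, 13.3 and 38.8 FPKM in DP and 6.84, 6.37 and 8.79 FPKM in LG, a log2 fold change of -1.16 (SE 0.38, adjusted p = 0.0391), and was not called without LL2, DP3, LG1, LG2 or LG3 (log2 fold change -1.24 to -0.71, adjusted p 0.0563 to 0.0989). GPNMB, a glycoprotein of lipid-laden macrophages, was at 11.99, 129.9 and 6.62 FPKM in DP and 0.67, 0.12 and 0.17 FPKM in LG, a log2 fold change of -3.73 (SE 0.86, adjusted p = 0.00871), with DP2 far above DP1 and DP3. Of the 20 T and cytotoxic lymphocyte genes tested, 1 was called higher and 3 lower, with a median log2 fold change of -0.65. The lower calls numbered 1 without DP1 or LG3 and 7 without DP3, and the median was -0.25, -0.42 and -0.88. CD3E, of the T cell receptor complex, was at 23.7, 9.66 and 6.59 FPKM in DP and 6.62, 7.31 and 4.54 FPKM in LG (-0.61), and CD8A had a log2 fold change of -0.58. PTPRC, the common leukocyte antigen, was at 56.01, 27.6 and 19 FPKM in DP and 10.4, 12.9 and 8.42 FPKM in LG, a log2 fold change of -1.24 (SE 0.32, adjusted p = 0.0144), and was not called without DP1 or LG3 (log2 fold change -1.07 to -0.84, adjusted p 0.0229 to 0.0528). IL7R, the interleukin-7 receptor of lymphocytes, was at 34.5, 25.7 and 9.75 FPKM in DP and 1.39, 3.12 and 1.77 FPKM in LG, a log2 fold change of -2.53 (SE 0.36, adjusted p = 0.000804). Of the 11 B cell and plasma cell genes tested, 1 was called higher and 3 lower, with a median log2 fold change of -0.62 (-0.40 without DP1). JCHAIN, which joins secreted immunoglobulins, was at 161, 195 and 54.1 FPKM in DP and 26.7, 12.5 and 21.2 FPKM in LG, a log2 fold change of -2.33 (SE 0.59, adjusted p = 0.0136). The B cell markers MS4A1 and CD79A were at 7.68 and 3.28 FPKM in DP1 and at 0.48 FPKM or less in the other 5 libraries, and were not tested. The part of cell number in these falls was not tested.

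Other cell types of the tissue were marked as follows. Of the 11 adipocyte genes tested, 1 was called higher and 1 lower, with a median log2 fold change of 0.00. The fat cell markers ADIPOQ, PLIN1 and LEP were highest in DP1, at 19.3, 5.83 and 0.86 FPKM, and were at 1.72 FPKM or less in the other 5 libraries. The 1 member called higher was SLC2A4. RBP4, a retinol carrier, had a log2 fold change of -1.70 and was not called without DP3, LG1 or LG3 (log2 fold change -1.68 to -0.95, adjusted p 0.00384 to 0.073). Of the 23 endothelial genes tested, 0 were called higher (0 at an unadjusted p under 0.05 in limma) and 7 lower, with a median log2 fold change of -0.67. LYVE1 and MMRN1, of lymphatic endothelium, had log2 fold changes of -2.31 and -1.82, and CLDN5, of vessel junctions, had -1.96. PECAM1, with a value shared with a neighbour, had -0.95 and was called without DP1 (-1.08), LG2 (-1.03) or LG3 (-1.06). CDH5 was at -0.28, and VWF was at -0.97 and was called without DP2 (-1.42). Of the 2 skin and hair genes tested, 1 was called higher and 0 lower (0 at an unadjusted p under 0.05 in limma), with a median log2 fold change of 3.08. The called gene was KRTAP11-1, a hair keratin-associated protein, at 0.21, 0.00 and 0.18 FPKM in DP and 98.4, 71.3 and 33.7 FPKM in LG. It passed the filter on low values only through the 3 LG libraries, so its call and the list's median of 3.08 rest on the values that let it in. It was not tested when any of these libraries was left out, and the list's median was then 0.50 to 0.84. KRT1 was at 0 and KRT10, which shared its value with KRT12, was at 2.48, 3 and 2.98 FPKM in DP and 5.21, 5.13 and 3.01 FPKM in LG. Of the skeletal muscle genes, 5 were tested and 0 called (0 higher and 3 lower at an unadjusted p under 0.05 in limma), with a median log2 fold change of -0.60. Of the red blood cell genes, 1 was tested and 0 called (1 higher and 0 lower at an unadjusted p under 0.05 in limma), with a median log2 fold change of 0.90. ALAS2, of haem synthesis in red cells, was listed at 0 in all 6 libraries, and HBB was not analysed here.

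Of the 29 antigen presentation and interferon genes tested, 4 were called higher and 4 lower, with a median log2 fold change of 0.21. CD74, the invariant chain of class II molecules, was at 468, 360.0 and 269 FPKM in DP and 109, 135 and 115 FPKM in LG, a log2 fold change of -1.34 (SE 0.22, adjusted p = 0.00178). IFI35, an interferon-induced protein, was at 17.6, 14.4 and 15.3 FPKM in DP and 55.8, 39.4 and 46.5 FPKM in LG, a log2 fold change of 1.72 (SE 0.16, adjusted p = 0.000122). ISG15, an interferon-induced ubiquitin-like protein, was at 1.64, 5.45 and 7.27 FPKM in DP and 1.23, 1.61 and 1.58 FPKM in LG (-0.85) and was called without DP1 (-1.28). Without LG2 the median of this list was -0.03, without LG1 2 were called higher, without DP3 or LG3 2 were called lower, and without scaling 3 were called higher and 10 lower. Of the 19 immediate early genes tested, 0 were called higher (1 at an unadjusted p under 0.05 in limma) and 4 lower, with a median log2 fold change of -0.30. KLF4 was at 8.26, 12.6 and 29.8 FPKM in DP and 1.75, 2.48 and 2.15 FPKM in LG, a log2 fold change of -2.04 (SE 0.37, adjusted p = 0.00252), and FOSL2 had a log2 fold change of -1.44. FOS, EGR1 and JUN, which respond to handling of tissue within minutes, overlapped between stages, at -1.47, 0.25 and -0.58. FOS was called lower without DP2 (-2.41), and the median of the list was -0.30, or 0.0036 without DP3, and 2 were called lower without LG3.

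The largest changes included genes of the lists, such as SLC2A4 of the adipocyte genes, and genes from outside them. The rule for named genes took, in each direction, the 15 genes with the largest fold change among called genes whose stages did not overlap. SLC27A5, a fatty acid transport protein and acyl-CoA synthetase known from liver, was at 13.2, 12.4 and 11.7 FPKM in DP and 332, 303 and 352 FPKM in LG, a log2 fold change of 4.81 (SE 0.14, adjusted p = 2.93e-07). SLC2A4, the insulin-responsive glucose transporter of fat and muscle, was at 41.2, 51.3 and 41.95 FPKM in DP and 880.2, 986 and 957 FPKM in LG, a log2 fold change of 4.59 (SE 0.18, adjusted p = 1.00e-06). SLC2A10, a glucose transporter of the same family, was at 6.74, 13.8 and 15 FPKM in DP and 211, 221 and 242 FPKM in LG, a log2 fold change of 4.38 (SE 0.26, adjusted p = 1.23e-05). That these genes did not overlap between stages was part of the rule that named them. The highest LG value of SLC27A5, SLC2A4 and SLC2A10 was 1.16, 1.12 and 1.15 times the lowest. MSTN, myostatin, an inhibitor of muscle growth, was at 3.32, 1.35 and 0.61 FPKM in DP and 50.8, 50.9 and 55.5 FPKM in LG, a log2 fold change of 4.38 (SE 0.36, adjusted p = 6.58e-05). PIK3CD, a PI3-kinase catalytic subunit typical of leukocytes, was at 12.1, 3.42 and 4.52 FPKM in DP and 124, 123 and 112 FPKM in LG, a log2 fold change of 4.28 (SE 0.30, adjusted p = 2.97e-05), while the leukocyte gene PTPRC fell. PGLYRP1, an antibacterial protein of neutrophils and of milk, was at 17.1, 7.94 and 4.82 FPKM in DP and 168, 129.7 and 226 FPKM in LG, a log2 fold change of 4.29 (SE 0.57, adjusted p = 0.000547). In the other direction, STC2, stanniocalcin-2, was at 13.7, 34.97 and 31.3 FPKM in DP and 0.02, 0.06 and 0.24 FPKM in LG, a log2 fold change of -4.05 (SE 0.34, adjusted p = 7.05e-05). ACKR1, a chemokine receptor of venules, was at 25.02, 11.2 and 23.6 FPKM in DP and 0.40, 0.37 and 0.86 FPKM in LG, a log2 fold change of -3.28 (SE 0.32, adjusted p = 0.00013), and IL1R1, the interleukin-1 receptor, was at 21.6, 29.4 and 42.95 FPKM in DP and 1.70, 1.64 and 2.25 FPKM in LG, a log2 fold change of -3.12 (SE 0.29, adjusted p = 0.000117). S100A2, a calcium-binding protein of basal epithelium, was at 135, 245 and 172 FPKM in DP and 18.2, 16.2 and 19.4 FPKM in LG, a log2 fold change of -2.99 (SE 0.31, adjusted p = 0.000162). MFAP4, DPT and DPYSL3, the first 2 of which are matrix proteins, had log2 fold changes of -3.56, -3.49 and -3.04, and ERV3-1 had -3.73. For MEDAG, AGP and PTX3 the highest DP library, DP3, was 16.4, 16.8 and 19.7 times the lowest. MEDAG was at 18.4, 40.7 and 302 FPKM in DP and 0.71, 3.23 and 3.84 FPKM in LG (-3.93), AGP, an acute phase glycoprotein, at 36.7, 7.57 and 127 FPKM in DP and 0.75, 0.39 and 0.70 FPKM in LG (-4.02) and PTX3, a pentraxin, at 10.7, 28.5 and 212 FPKM in DP and 0.63, 3.40 and 6.90 FPKM in LG (-3.14). PTX3 was not called without LG1 or LG2 (log2 fold change -3.23 to -2.58, adjusted p 0.052 to 0.0874).

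Many neighbouring genes carried a single measurement between them. A pair within 8 neighbours on a chromosome was taken as linked when a straight line between its values over the 9 libraries left no residual above 1% of the range. By this rule 614 genes in 1025 pairs were linked, and all 1025 pairs lay on the same strand, against 50.4% of all pairs searched. Of the linked genes 610 were tested, and 84 were called higher and 59 lower. Over all 14701 genes tested, 6.37% were called higher and 6.88% lower. A further set differed by fixed amounts. BAX minus FTL was 1.0, 1.5 and 1.5 FPKM in the DP libraries and 1.5, 1.2 and 1.0 FPKM in the LG libraries, and the same amounts recurred between other neighbours. With these amounts allowed, which was chosen after the values were seen, 1506 genes were linked. Of these 1502 were tested, and 116 were called higher and 81 lower. Linked genes stay in the counts above, but the change of either gene alone cannot be told apart from that of its neighbour.

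The linked block of the caseins lay on chromosome 6 of the deposited coordinates, whose build the table does not name. CSN1S1 spans 85978463 to 85995270, CSN1S2 spans 86076845 to 86093539 and CSN3 spans 86197263 to 86211376. CSN1S1, the gene of alpha-S1 casein, was at 27.6, 22.04 and 14.5 FPKM in DP and 1236, 1959 and 1934 FPKM in LG, a log2 fold change of 6.48 (SE 0.27, adjusted p = 1.08e-06). CSN3, the gene of kappa-casein, was 14.1 to 14.6 FPKM above CSN1S1 in all 9 libraries, and CSN1S2 was 1.76 to 3.3 FPKM above it. A further member, LOC102178810, followed the same line. Their fold changes of 6.48, 6.31 and 5.75 are thus 1 measurement, and CSN2 on the same chromosome was not linked to it. Other blocks with a gene named above, besides that of MRPL52, included CCDC57 with FASN, SMU1 with B4GALT1, ASH2L with EIF4EBP1, LOC102179516 with PECAM1, KRT10 with KRT12, KRT5 with KRT6A and 2 unnamed genes, and KRT14 with 2 unnamed genes. The most abundant other blocks were B3GALT4 with the ribosomal gene RPS18, C24H18orf32 with LOC100861018, LOC108635404 with LOC108635405 and LOC108634845 with LOC108634846. B3GALT4, a glycosyltransferase, was at 639, 590.5 and 579 FPKM in DP and 1581, 1603 and 1327 FPKM in LG, 1.0 to 1.5 FPKM below RPS18 in every library. LOC108634845 and LOC108635404 were at log2 fold changes of 2.17 and 1.96 and were not called. Without LG3 they were called at 2.93 and 2.66, and so was LOC108634845 without LL2 (2.18) or DP2 (2.67) and LOC108635404 without LL3 (1.97).

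**Figure D5:**
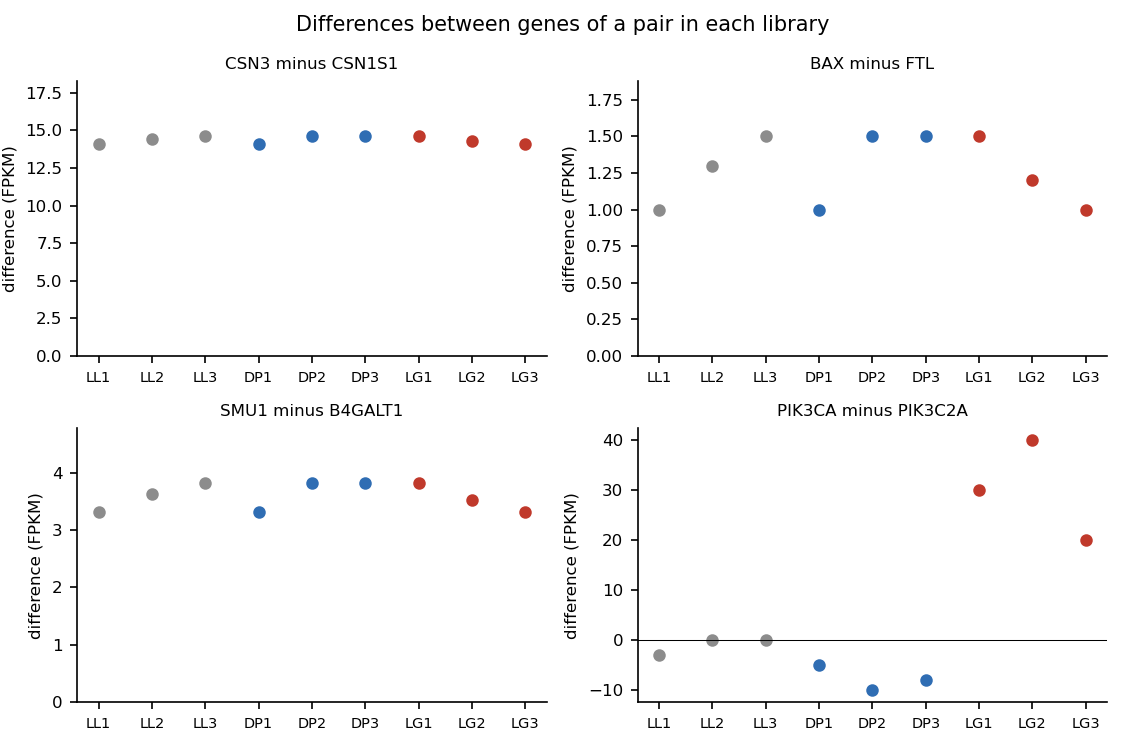
Differences in FPKM as deposited (y axis) between the 2 genes of 4 pairs in each of the 9 libraries (x axis). CSN3 minus CSN1S1 stays between 14.1 and 14.6, BAX minus FTL between 1.0 and 1.5 and SMU1 minus B4GALT1 between 3.32 and 3.82, while PIK3CA minus PIK3C2A takes whole values, from -10 to 0 in LL and DP and from 20 to 40 in LG.

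Low values were unevenly filled just below these amounts, which was looked at only after the values were seen. Genes with a mean from 0.5 to below 1 FPKM numbered 618 in DP but 39 in LG and 9 in LL, while those from 1 to below 1.5 FPKM numbered 409, 828 and 1676. Of the genes with a mean of at least 0.5 FPKM, 13320 of 14900 in DP and 12897 of 13901 in LG reached the fixed amount in all 3 libraries. With the amounts subtracted from every gene whose 3 libraries of a stage reached them, 1104 genes were called higher and 917 lower. Under this setting 11 of the called genes named here were no longer called, namely AREG, LPIN1, MMP9, MRC1, RBP4, RRM2, SLC34A2, SLC7A2, SQSTM1, TNFSF11 and WNT4, with the same direction in each. Of the called genes, 68 of those higher in LG had a DP mean under 0.5 FPKM and 237 of those lower in LG had an LG mean under 0.5 FPKM. Whether the amounts were part of the measured values was not tested.

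Values of 3 other pairs were related in a way that differed between libraries. RPL36AL minus DNAAF2 was 1.0 FPKM in DP1 but 100001.5 FPKM in DP2 and DP3, 100001.5 in LG1, 100001.2 in LG2 and 100001.0 in LG3, which is the same fixed amount plus 100000 in 5 of the 6 libraries. LOC102168547 was 0.833 times B2M in DP and 1.00 times it in LG. Among 13308 genes with at least 1 FPKM in 6 libraries, 6 pairs of genes were a whole number of FPKM apart in all 9 libraries, and 5 of those differed by 0 throughout. The sixth was PIK3CA, a PI3-kinase catalytic subunit on chromosome 1, and PIK3C2A, a class II PI3-kinase on chromosome 15. PIK3CA was at 10.1, 7.21 and 9.25 FPKM in DP and 37.6, 48.3 and 36.5 FPKM in LG, and PIK3C2A was at 15.1, 17.2 and 17.2 FPKM in DP and 7.56, 8.33 and 16.5 FPKM in LG. PIK3CA minus PIK3C2A was -5, -10 and -8 FPKM in DP and 30, 40 and 20 FPKM in LG. The origin of these amounts was not tested, and no direction was drawn from RPL36AL, B2M or PIK3CA by itself. Any of these genes that belongs to a list stays in its counts, as RPL36AL does among the ribosomal protein genes.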

How the data were processed

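Mammary tissue from 9 goats, 3 each in late lactation (LL), the dry period (DP) and late gestation (LG), was profiled by RNA-seq, with 1 library per goat and column. The authors' methods describe read trimming, alignment with HISAT2 to the goat reference genome and StringTie quantification, and the submitters' processing notes name FastQC, Trimmomatic, HISAT2, SAMtools and HTSeq. The values deposited by the authors were taken as FPKM, since the table names no unit and its column sums differ between libraries. The table holds no counts or read depth, so no counting interval is given. All 9 value columns were used. The genome build of the deposited coordinates is not given in the sources used here, and no sequences are shown. Of 23499 gene IDs, 23465 matched the RefSeq gene table, and 3078 genes were at 0 in all libraries.

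Libraries were scaled by median-ratio factors over 15905 genes above 0 in each, and the 14701 genes that reached 0.5 FPKM in 3 or more libraries entered the test. Limma 3.58.1 in R 4.3.3 was run with a mean-variance trend on log2(scaled FPKM + 1), with all 9 libraries sharing 1 estimate of the spread. Fold changes are on this scale, which understates the change of low genes. Calls needed an adjusted p (Benjamini-Hochberg) below 0.05 and a change of 1 or more on the log2 scale, in either direction. FPKM in the text are as deposited, before scaling. On simulated data, 89 of 100 genes changed by 1.5 on the log2 scale and 97 of 100 changed by 2.5 were called, with 5 unchanged genes called. The share of milk protein genes was compared by an exact two-sided permutation test.

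Named genes were the key genes of 36 lists, the 15 largest called changes in each direction (a symbol other than LOC, at least 2 FPKM in the higher stage, no overlap of libraries and no linked neighbour), up to 4 called members of each list in each direction, and the 5 linked blocks of highest level with any block holding a key gene. Other genes named were chosen after their values were seen. The comparison, the lists and the members were chosen with earlier results of these data known. Alternatives covered scaling, pseudocount, filter, trend, libraries in the fit, linked genes, the fixed amounts and the replicate number, and each library was left out in turn. Some genes that the rule named are not reported here.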

Additional observations from a re-analysis of the deposited data

How the results depend on the processing

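Of the counts over all genes, called genes lower in LG rose from 1011 to 1577 without scaling and to 1529 with a pseudocount of 0.1, and adjusted p alone gave 5112 genes, 2699 higher and 2413 lower. The split between higher and lower calls was 937 to 1011 after scaling and 715 to 1577 without it. Leaving out 1 library gave 1738 to 2004 called genes, 848 to 977 of them higher and 890 to 1040 lower, and 21 to 24 lists with a positive median. The milk protein share was 0.0809% to 0.103% in DP and 3.58% to 4.27% in LG when 1 library was left out, and 0.141% and 5.83% without RPL36AL and DNAAF2. Linked genes numbered 391 at a tolerance of 0.1%, 1361 at 5% and 1506 with fixed amounts allowed. The cause of these differences was not tested.

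Directions turned for some genes, of which EEF1A1 alone was called, and for some lists with a median near 0. Log2 fold changes without scaling were -0.18 for ACTA2, -0.10 for ATP2B2, -0.081 for CDH1, -0.14 for KDELR3, -0.20 for LAMP1, -0.070 for SLC7A5, -0.043 for TP63 and -0.010 for XBP1. With quantile normalization they were -0.22 for ACTA2, -4.20 for B2M, -0.071 for CDH1, -1.26 for COL3A1, -0.17 for DNAAF2, -0.10 for EEF1A1, -0.35 for FGF2, -0.031 for KDELR3, -0.31 for LAMP1, -2.09 for LOC102168547 and -0.19 for XBP1. Quantile normalization of DP and LG alone, tried after seeing the data, gave -0.21, -0.91, -0.070, -0.39, -0.25, -0.26, -1.78, -0.026, -0.31, -0.56 and -0.19 for the same genes in that order, and an antigen presentation and interferon median of -0.011. The fixed amounts subtracted gave 0.022 for ACLY, -0.032 for ATP2B2, -0.11 for EGR1 and 0.000223 for IGF1. The skin and hair median was -0.0093 with no filter, and the skeletal muscle median 0.020 at a filter of 2 FPKM.

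With 1 library left out, values of both signs occurred for ACLY (-0.17 to 0.10), ACTA2 (-0.31 to 0.74), ATP2B2 (-0.062 to 0.13), COL1A1 (-0.99 to 0.60), COL3A1 (-0.26 to 0.98), DNAAF2 (-0.030 to 0.50), EGR1 (-0.42 to 0.68), IGF1 (-0.38 to 0.29), KDELR3 (-0.21 to 0.49), KRT5 (-0.56 to 0.55), KRT6A (-0.56 to 0.55), KRT8 (-0.52 to 0.047), LAMP1 (-0.017 to 0.068) and SLC7A5 (-0.31 to 0.52), and for the medians of the antigen presentation and interferon genes (-0.029 to 0.35) and the immediate early genes (-0.46 to 0.0036). Of 153 called genes named, 12 were still tested but not called without some library, and of 57 named and tested but not called, 14 were called without some library. A gene that failed the filter when a library was left out, as KRTAP11-1 did, was not counted for that library.

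With the replicate number as a block, 953 genes were called higher and 1033 lower. Deviations from the stage mean correlated at 0.20, -0.11 and 0.16 between DP and LG libraries of the same number, and not every library correlated best with its own number, so the numbers were not taken as pairs.

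The limits of the comparison are 3 goats per stage, values with no counts behind them and neighbours that share values. Stage and goat cannot be told apart, and in whole tissue fewer cells of a type and less RNA per cell cannot be told apart.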

Other observations

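Some families of nutrient transporters and signalling genes were singled out after their values had been seen, so their counts are descriptions. Of all genes tested, 6.37% were called higher and 6.88% lower. Among facilitative glucose transporters, 9 of 11 SLC2A genes in the table were tested, 7 were called higher in LG and 1 lower. SLC2A9, a urate and hexose transporter, was at 50.2, 40.7 and 50.5 FPKM in DP and 260.1, 321 and 245 FPKM in LG, a log2 fold change of 2.74 (SE 0.17, adjusted p = 1.68e-05). SLC2A12 and SLC2A13, the second of which carries myo-inositol, had log2 fold changes of 2.07 and 1.76. SLC2A3, the high-affinity transporter of neurons and leukocytes, was the member that fell, at 19.3, 25.4 and 33.2 FPKM in DP and 3.05, 4.43 and 8.16 FPKM in LG, a log2 fold change of -1.90 (SE 0.32, adjusted p = 0.00192). Of 6 fatty acid transport protein genes (SLC27A), 4 were tested and all 4 were called higher. SLC27A4 was at 53.7, 53.3 and 53.9 FPKM in DP and 622, 592 and 613 FPKM in LG, a log2 fold change of 3.71 (SE 0.15, adjusted p = 1.00e-06), SLC27A3 at 12.7, 22.7 and 12.9 FPKM in DP and 203, 223 and 243 FPKM in LG, a log2 fold change of 3.95 (SE 0.22, adjusted p = 7.65e-06), and SLC27A1 at 7.32, 4.64 and 4.05 FPKM in DP and 68.3, 79.8 and 77.3 FPKM in LG, a log2 fold change of 3.75 (SE 0.19, adjusted p = 4.59e-06). The highest LG value of SLC27A4 was 1.05 times the lowest, and the highest DP value was 1.01 times the lowest. In LL, SLC27A4 was at 322, 323 and 313 FPKM, SLC2A9 at 113, 113 and 112 FPKM and SLC27A3 at 60.73, 60.45 and 60.99 FPKM. SLC27A1 was less even in LL, at 31.1, 41.5 and 31.9 FPKM. The origin of such close values was not tested.

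Of 7 PI3-kinase catalytic subunit genes tested, PIK3CA left aside, 4 were called higher in LG. PIK3CB, PIK3CG and PIK3C2G had log2 fold changes of 1.83, 1.63 and 1.96. Among the kinases they act on, AKT2 was at 4.36, 1.57 and 3.80 FPKM in DP and 44.7, 50.1 and 56.3 FPKM in LG, a log2 fold change of 3.74 (SE 0.27, adjusted p = 3.61e-05), and AKT1 had 1.52. Of 22 fibroblast growth factor genes in the table, 7 were tested and 4 were called higher. FGF9 and FGF13 had log2 fold changes of 2.34 and 1.94. FGF2, a growth factor held in the matrix, was at 2799, 2262 and 3213 FPKM in DP and 4384, 4489.5 and 4521 FPKM in LG, beside a CSN2 mean of 4938 FPKM in LG. Its log2 fold change of 0.95 was under the limit of 1 but was 1.08 without DP3, where it was called, and turned to -0.35 with quantile normalization of all 9 libraries and to -1.78 with that of DP and LG alone. FGFR1, a fibroblast growth factor receptor, was at 28.8, 26.4 and 45.7 FPKM in DP and 7.84, 10.9 and 13.3 FPKM in LG, a log2 fold change of -1.31 (SE 0.27, adjusted p = 0.00495).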
